A study of Homo sapiens with 6 samples.

Results

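This account covers the intergenic and antisense long noncoding RNAs of a human bladder cancer line after transfection with MAT1A. Members were all genes of the deposited table whose symbol begins with LINC and a digit, or ends in -AS and a digit, leaving out EPB41L4A-AS1. There were 315 of them among 13271 genes, or 2.37% of the table: 108 with a LINC symbol and 207 with an antisense symbol. The cells were 5637, an established line from a human bladder carcinoma. Control cells (3 libraries) received empty vector and the MAT1A group (3 libraries) a plasmid carrying MAT1A, both by lipofection, and RNA was taken 48 h later. MAT1A encodes the catalytic subunit of the liver form of methionine adenosyltransferase, which makes S-adenosylmethionine, the methyl donor of the cell. Both groups therefore carry plasmid and transfection reagent, and an untransfected group was not analysed here. Bulk RNA of a transfected well averages cells that took up plasmid and cells that did not. Whether replicates were separate cultures is not in the labels. The p-values therefore cover the variation among these 6 libraries only, and that variation may be technical.

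Long noncoding RNAs are transcripts made and processed much like messenger RNAs that encode no known protein. LINC genes lie between protein-coding genes, whereas an antisense RNA is transcribed from the strand opposite a named neighbour, often starting close to that neighbour's promoter. Some act on the gene beside them, some bind microRNAs or proteins, and many are kept at low levels because nuclear RNA decay removes them. The libraries were made with a kit that does not mark strand, so where an antisense gene and its sense partner share exon sequence their reads cannot be told apart from the strand. Each antisense RNA is therefore set beside its sense gene.

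Promoter sequence is shown for 3 of the RNAs that fell, because these starts lie outside any exon of a coding gene and each holds the AP-1 site sequence TGANTCA. AP-1 is the Fos and Jun family of transcription factors. Each run is 300 bases, from 250 before the RefSeq start to 50 after it (GRCh38.p14), read 5′ to 3′ on the strand of the gene, with matches to the motifs searched in capitals. LINC00973 is at chr3:98980805-98981104 on the plus strand, with 1 AP-1 match. ADIRF-AS1 is at chr10:86971191-86971490 on the minus strand, with 1 AP-1 match, 2 E-box matches (CACGTG) and 3 GC box matches (GGGCGG). LINC00460 is at chr13:106376314-106376613 on the plus strand, with 2 AP-1 matches.
LINC00973: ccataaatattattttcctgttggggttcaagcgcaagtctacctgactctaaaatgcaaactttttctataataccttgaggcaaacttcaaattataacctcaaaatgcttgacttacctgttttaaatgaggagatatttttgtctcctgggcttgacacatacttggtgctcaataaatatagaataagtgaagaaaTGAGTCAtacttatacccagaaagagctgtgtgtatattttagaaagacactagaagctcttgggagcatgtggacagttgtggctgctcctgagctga
ADIRF-AS1: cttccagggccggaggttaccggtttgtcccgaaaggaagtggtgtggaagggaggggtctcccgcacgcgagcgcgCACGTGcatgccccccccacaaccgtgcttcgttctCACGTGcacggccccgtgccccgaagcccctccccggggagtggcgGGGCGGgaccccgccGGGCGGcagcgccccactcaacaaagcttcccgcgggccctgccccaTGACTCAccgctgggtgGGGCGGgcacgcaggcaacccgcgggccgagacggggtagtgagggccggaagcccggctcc
LINC00460: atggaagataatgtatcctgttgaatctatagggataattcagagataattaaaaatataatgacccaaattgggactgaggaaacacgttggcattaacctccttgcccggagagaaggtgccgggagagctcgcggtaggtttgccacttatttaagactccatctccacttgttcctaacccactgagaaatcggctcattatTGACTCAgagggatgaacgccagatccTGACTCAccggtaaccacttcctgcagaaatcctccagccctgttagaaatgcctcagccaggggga
The RefSeq table held 275 such windows for 220 of the members, and 15 windows for 11 of the members that changed. On either strand, TGANTCA stood in 6 of those 15 windows (40.0%), in 29 of the 275 member windows (10.5%) and in 7.71% of the 35116 windows of all genes. Of the 6 windows, 3 belong to LINC00973, which has 4 of the 15, and the others are 1 each of ADIRF-AS1, LINC00460 and LINC00963, the last of which rose. The matching windows of LINC00973 include ones that start 13974 and 66492 bases from its nearest start in GENCODE 29. That of LINC00963 starts 115 bases from one, and sequences are shown only for starts within 100 bases. Of the 11 members, 7 had a start within that limit, and sequences are shown only for the 3 of these with an AP-1 match. Counted by gene, 4 of the 11 members held a match, and the share by gene over all genes was not taken. The NF-kB motif stood in 0 of the 15 windows and in 0.558% of all windows. CACGTG stood in 2 of the 15 (13.3%, against 7.26% of all) and GGGCGG in 7 (46.7%, against 45.0%). A match is a run of letters and not a site shown to be bound.

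MAT1A itself had a value of 1.96 ± 2.27 in control and 1852 ± 58.0 in MAT1A libraries (mean ± SD, n = 3 as throughout), a log2 change of 9.57. Values are reads on a scale close to CPM, and a log2 change is the MAT1A mean of log2(value + 1) less the control mean, a scale on which changes of low genes come out too small. The libraries held between 17.4 and 21.6 M reads, so 3 reads were worth 0.140 to 0.172. All 9 urothelial and epithelial markers looked for were in the table, with a summed value of 5996 to 6153 in control and 6701 to 7216 in MAT1A libraries. Skeletal muscle markers were also present (12 of 12), at a summed value of 90.0 to 452.7 in control and 44.2 to 89.5 in MAT1A libraries, with control 1 the highest. Of 7 fibroblast markers 4 were present, at 202.8 to 319 against 175.6 to 187, and DCN, LUM and PDGFRA were not listed. Of the immune and endothelial markers, 1 of 6 and 1 of 4 were listed, at summed values no higher than 1.66 and 1.13.

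The noncoding RNAs were scarce. Their mean value over the 6 libraries had a median of 2.20, against 28.4 for all genes, and 148 of the 315 lay under 2 while 12 reached 20. Per kilobase of exon the median mean value was 0.764, against 5.41 for all genes, with 0.924 for LINC genes and 0.679 for antisense genes. The test took genes that reached 1 in 3 or more libraries, which 271 did (89 LINC, 182 antisense). Of these, 8 passed through the 3 control libraries alone and 0 through the MAT1A libraries alone. The 44 that did not pass had mean values between 0.387 and 1.02. With few reads per gene, the standard error of the log2 change had a median of 0.12 among the members and 0.057 among all 12866 genes tested.

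Among the 271 tested, 15 changed, 3 higher and 12 lower in MAT1A cells (limma, Benjamini-Hochberg adjusted p under 0.05 over all genes tested). Of the 12 lower, 2 had passed the minimum through the control libraries alone and could only have been called lower. The 15 are 5.54% of the members tested, against 11.4% of all genes tested (4.01% higher, 7.4% lower). This fit does not pair the libraries. With replicate number as a block, 18 members were called (6.64%, against 18% of all genes). The 15 comprised 9 LINC genes (10.1% of those tested) and 6 antisense genes (3.3%). In 57 of the 271 (21.0%; 23 higher, 34 lower) the 3 control and 3 MAT1A values did not overlap, against 30.3% of all genes (14.7% higher, 15.6% lower). An unadjusted limma p under 0.05 was reached by 35 members (12.9%) and by 26.2% of all genes. The median log2 change was −0.012 for the members and 0.004 for all genes, with quartiles of the members at −0.12 and 0.09 and the extremes at −0.97 and 0.41.

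The share that changed was read again at matched levels, since low genes carry larger errors. Under a mean value of 2, 3 of 104 members changed (2.88%, against 7.28% of all genes at that level). From 2 to 5 it was 4 of 88 (4.55%, against 8.31%), and from 5 to 20 it was 7 of 67 (10.4%, against 9.63%). At 20 and above, 1 of 12 changed (8.33%, against 13.1%). Whether the share differs between members and other genes was not tested.

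**Figure D1:**
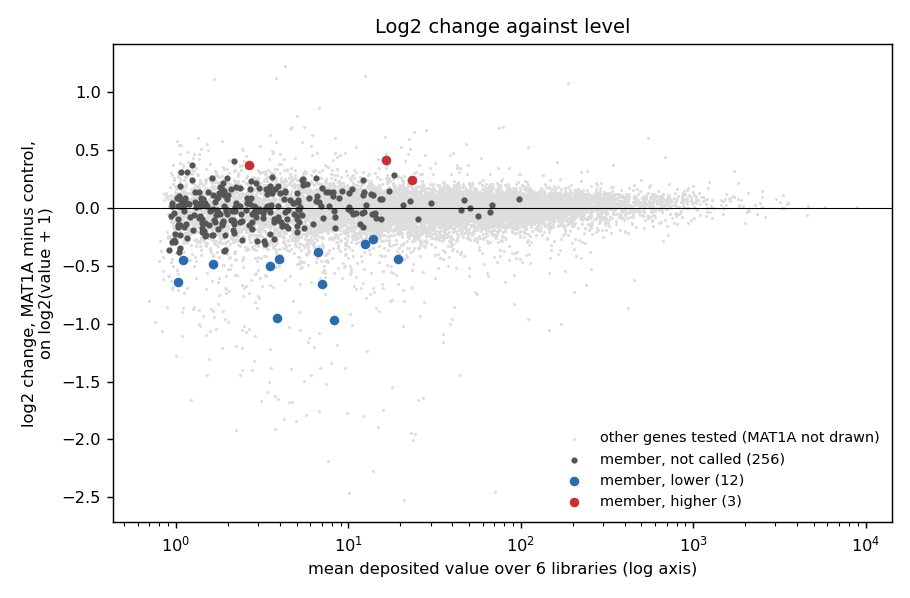
Log2 change (MAT1A minus control, vertical axis) against mean value over the 6 libraries (horizontal log axis) for the 271 members tested, drawn over the other genes tested (MAT1A itself is not drawn), with the 3 members that rose and the 12 that fell in colour. Most members lie at mean values under 5, where the spread of the log2 change is wide, and changes ran from −0.97 to 0.41.

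Of the RNAs that fell, LINC00973 had the smallest p. It lies on chromosome 3 at 98981058 to 98983096 (plus strand, GENCODE 29 on GRCh38, as are all gene positions here). Its values were 11.5, 11.3 and 10.9 in control and 5.01, 4.99 and 5.78 in MAT1A libraries. The groups were far apart, and the log2 change was −0.97 ± 0.09 (SE; limma, Benjamini-Hochberg adjusted p = 6.7e-07). The nearest start of a coding gene in the table, 79369 bases away on the other strand, was that of DCBLD2, a membrane receptor, which also fell (772 ± 24.1 to 656.7 ± 41.7, log2 change −0.23, adjusted p = 0.000941).

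ZFPM2-AS1 is antisense to ZFPM2, a cofactor of GATA transcription factors, and lies on chromosome 8 at 105546089 to 106060524 on the minus strand. It read 5.62, 5.05 and 5.50 in control and 2.80, 2.06 and 2.10 in MAT1A libraries. Every control value was above every MAT1A value, with a log2 change of −0.95 ± 0.11 (limma, Benjamini-Hochberg adjusted p = 2.2e-05). ZFPM2 shares no exon bases with it and gave 3.76 ± 0.63 and 3.23 ± 0.53, overlapping groups (log2 change −0.17, adjusted p = 0.423).

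ADIRF-AS1 (chromosome 10, 86965345 to 86971311, minus strand) had 8.38, 8.69 and 9.36 in control and 5.28, 5.24 and 5.13 in MAT1A libraries. The MAT1A values lay close together and all below control, with a log2 change of −0.66 ± 0.09 (limma, Benjamini-Hochberg adjusted p = 6.4e-05). ADIRF was not a row of the table. The RNA shares 440 exon bases with MMRN2, an endothelial matrix protein on the same strand, whose value was low and changed by 0.07 (adjusted p = 0.805).

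LINC01578 lies at chromosome 15, 92882707 to 92899701, upstream of CHD2 on the same strand. It is also known as CHASERR and is known to restrain CHD2, a chromatin remodeller, in cis. Its values were 20.7, 22.6 and 24.3 in control and 16.1, 16.4 and 16.5 in MAT1A libraries, without overlap (log2 change −0.44 ± 0.07, limma, Benjamini-Hochberg adjusted p = 0.00030). CHD2 gave 111.1 ± 3.59 and 103 ± 6.76, a log2 change of −0.11 (adjusted p = 0.139, and 0.0346 with replicate number as a block).

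SH3RF3-AS1 is a low antisense RNA that passed the minimum through the control libraries alone, so its test rests on values of about 1. It lies on chromosome 2 at 109127327 to 109128930 (minus strand) and read 1.72, 1.26 and 1.45 in control and 0.539, 0.565 and 0.653 in MAT1A libraries. Its groups did not overlap, and the log2 change was −0.64 ± 0.13 (limma, Benjamini-Hochberg adjusted p = 0.00497). In GENCODE it starts 418 bases from SH3RF3, a ubiquitin ligase gene read in the other direction. SH3RF3 had a log2 change of −0.19 with overlapping groups (adjusted p = 0.179, limma). The RefSeq start of SH3RF3-AS1 is 1189 bases from the GENCODE start. Its promoter window there lies within SH3RF3 and touches an exon of a coding gene. The 2 sources thus differ on whether the genes lie apart, and the part of SH3RF3 reads in the value of SH3RF3-AS1 was not tested.

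NOP14-AS1 (chromosome 4, 2934899 to 2961738, plus strand) read 16.2, 15.6 and 13.8 in control and 13.3, 12.8 and 11.3 in MAT1A libraries. The lowest control lay just above the highest MAT1A value, and the log2 change was −0.27 ± 0.08 (limma, Benjamini-Hochberg adjusted p = 0.0398). It shares 605 exon bases, 8.41% of its exon length, with NOP14, a factor of small ribosomal subunit assembly, which gave 79.6 ± 0.74 and 82.9 ± 2.49 (log2 change 0.06, adjusted p = 0.348). MFSD10 starts 40 bases away in the other direction and had a log2 change of 0.08 (adjusted p = 0.248).

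MAGI2-AS3 (chromosome 7, 79452877 to 79471208, plus strand), studied elsewhere as a growth-restraining RNA in tumours, read 4.59, 3.64 and 4.63 in control and 2.80, 2.21 and 3.26 in MAT1A libraries. The groups did not overlap (log2 change −0.50 ± 0.12, limma, Benjamini-Hochberg adjusted p = 0.0155), and MAGI2 was not a row of the table.

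There were 4 other LINC genes that fell. LINC01003 (chromosome 7, 152463786 to 152465549) read 1.95, 2.17 and 2.08 in control and 1.13, 1.28 and 1.17 in MAT1A libraries (log2 change −0.48 ± 0.12, adjusted p = 0.0146, limma). LINC00265 (chromosome 7, 39733632 to 39793092) read 3.96, 4.85 and 5.40 against 3.02, 3.60 and 3.03 (−0.44 ± 0.11, adjusted p = 0.0194, limma). In both, every MAT1A value was below every control value, by a narrow margin for LINC00265. LINC00460 (chromosome 13, 106374477 to 106384315), an RNA described in many carcinomas, read 7.46, 8.59 and 6.90 against 5.28, 6.84 and 4.94 (−0.38 ± 0.11, adjusted p = 0.0363, limma). LINC00941 (chromosome 12, 30755167 to 30802602) read 14.3, 14.1 and 13.4 against 10.7, 10.3 and 12.3 (−0.31 ± 0.08, adjusted p = 0.0161, limma). For LINC00460 the lowest control and the highest MAT1A library nearly met. The coding start nearest to that of LINC00460, 161185 bases away, was that of EFNB2, an ephrin ligand. EFNB2 fell (215 ± 2.04 to 193.5 ± 3.46, log2 change −0.15, adjusted p = 0.00409, limma). For LINC00941 it was CAPRIN2, 216 bases away in the other direction, with 37.4 ± 0.36 and 41.6 ± 4.03 (log2 change 0.14, adjusted p = 0.130, limma).

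Only LINC genes were among the 3 that rose. LINC02474 (chromosome 1, 221966341 to 221984964, plus strand) read 15.1, 12.4 and 14.8 in control and 20.7, 17.4 and 19.2 in MAT1A libraries. All MAT1A values were above control (log2 change 0.41 ± 0.08, limma, Benjamini-Hochberg adjusted p = 0.00306). DUSP10, a phosphatase of stress-activated MAP kinases and its nearest coding neighbour at 224165 bases, gave 45.6 ± 3.57 and 50.7 ± 0.88 (log2 change 0.16, adjusted p = 0.0691, and 0.0268 with the replicate block). LINC00899 (chromosome 22, 46039907 to 46044853) read 2.47, 2.07 and 1.98 against 3.29, 3.03 and 2.98 (0.37 ± 0.11, adjusted p = 0.0420, limma). LINC00963 (chromosome 9, 129483451 to 129513686) read 22.6, 22.8 and 18.9 against 24.2, 26.5 and 25.5 (0.24 ± 0.07, adjusted p = 0.0377, limma). Its control 3 library was low, and without it the change was 0.15 (adjusted p = 0.201).

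**Figure D2:**
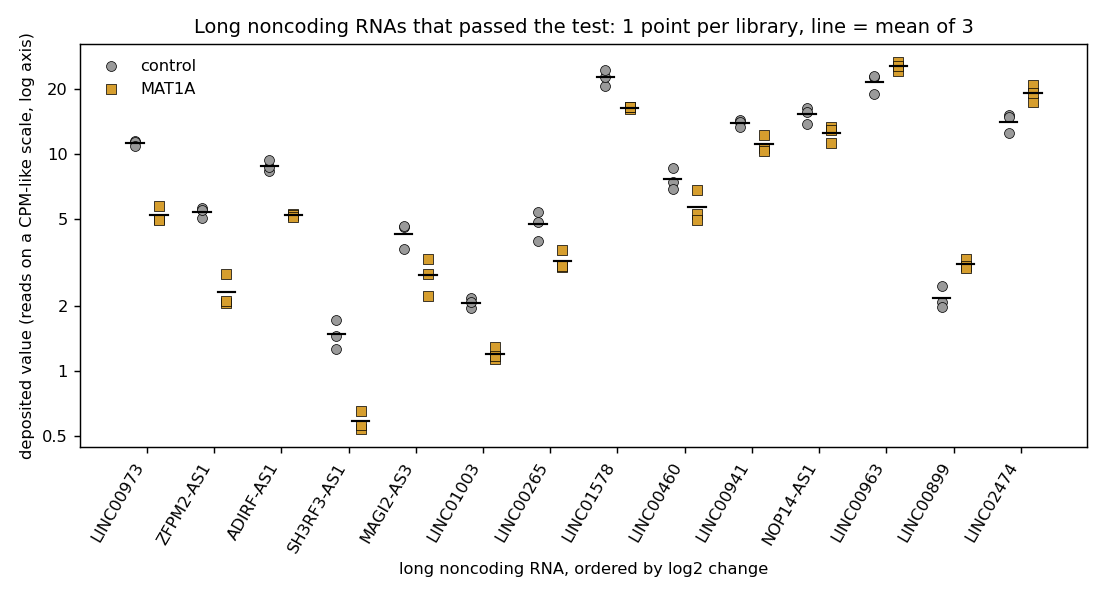
Values of 14 members that changed, by library, with control and MAT1A libraries as separate points, the mean of each group as a line, and value on a log axis. The 3 libraries of a group do not overlap those of the other group in any of the 14.

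Of the 15 calls, 5 held whichever library was left out: LINC00973, ZFPM2-AS1, ADIRF-AS1, LINC01578 and LINC02474. SH3RF3-AS1 passed without each MAT1A library, and without any control library it fell under the minimum and could not be tested. The other calls described above were each lost without at least 1 library. Without control 1 these were NOP14-AS1, LINC00941, MAGI2-AS3 and LINC00460. Without control 2 they were LINC01003, NOP14-AS1, LINC00941, LINC00460, LINC00899 and LINC00265, and without control 3 they were LINC01003, MAGI2-AS3, LINC00899, LINC00963 and LINC00265. LINC00899 and LINC00963 were lost without each MAT1A library. Further losses were LINC00941, LINC00460 and LINC00265 without MAT1A 1, LINC00941 and MAGI2-AS3 without MAT1A 2, and NOP14-AS1 and LINC00460 without MAT1A 3. The highest adjusted p in these fits (limma) was 0.0589 for LINC01003, 0.0688 for LINC00941, 0.0837 for MAGI2-AS3 and 0.119 for LINC00265. It was 0.146 for LINC00460, 0.158 for LINC00899, 0.164 for NOP14-AS1 and 0.201 for LINC00963. With the summed level of the skeletal muscle markers as a covariate, 6 passed: LINC00973 (log2 change −0.96), ZFPM2-AS1 (−0.82), ADIRF-AS1 (−0.73), LINC00265 (−0.68), LINC01578 (−0.57) and LINC02474 (0.52). That summed level was 90.0 to 452.7 in control and 44.2 to 89.5 in MAT1A libraries, so the covariate partly stands for the group. The fit also leaves fewer degrees of freedom than the main one. The number of all genes called in it fell from 1468 to 390, and why calls were lost was not tested. In bulk RNA, fewer cells making a transcript and less transcript per cell cannot be told apart. Of the 15 nearest coding neighbours, all of them tested, 2 changed (DCBLD2 and EFNB2), where 11.4% of all genes tested did. At that share the count says little about a link between neighbours, which was not tested.

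**Figure D3:**
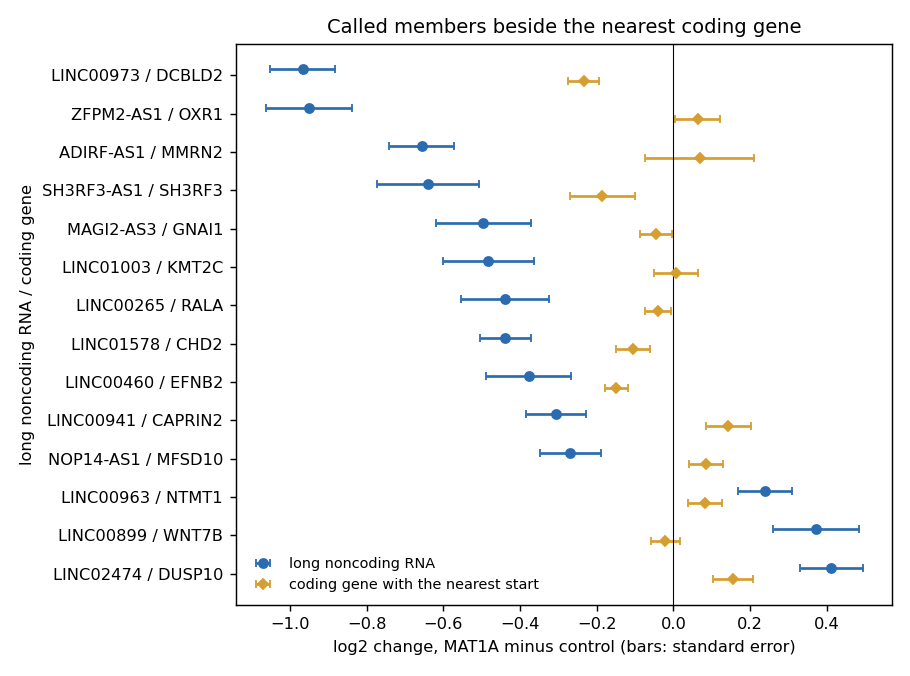
Log2 change of 14 members that changed and of the coding gene in the table with the nearest start, MAT1A minus control, with bars for the standard error. DCBLD2 beside LINC00973 and EFNB2 beside LINC00460 fell, at −0.23 and −0.15, and the other 12 neighbours drawn did not pass the test. Of all genes tested, 11.4% passed.

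The 8 most abundant of these RNAs did not pass. OIP5-AS1 (Cyrano), which is known to direct the breakdown of the microRNA miR-7, read 100.2, 89.2 and 97.2 in control and 103, 94.5 and 104 in MAT1A libraries. The groups overlapped, with a log2 change of 0.08 (adjusted p = 0.330, limma), or 0.12 (adjusted p = 0.0219) with trends on GC content and exon length taken out of each library. It shares 470 exon bases with OIP5, a centromere protein gene, which changed by 0.08 (adjusted p = 0.597). FGD5-AS1 gave 67.2 ± 1.30 and 68.4 ± 0.61, LINC02582 gave 66.9 ± 3.58 and 65.3 ± 0.52, and THUMPD3-AS1 gave 57.7 ± 1.25 and 55.1 ± 5.97. PAX8-AS1 was at 50.8 ± 1.44 and 50.8 ± 0.47, EMC3-AS1 at 45.7 ± 1.08 and 48.3 ± 4.37, LINC00511 at 45.3 ± 2.00 and 44.8 ± 1.10, and PSMA3-AS1 at 29.5 ± 1.73 and 30.5 ± 2.24. These 7 had log2 changes between −0.07 and 0.07. Per kilobase of exon the order was another one, with LINC02582 at 29.1, FGD5-AS1 at 13.2, EMC3-AS1 at 12.7, THUMPD3-AS1 at 8.99, OIP5-AS1 at 7.74, PSMA3-AS1 at 4.05, PAX8-AS1 at 2.94 and LINC00511 at 1.63. Of their sense genes with a row, EMC3 rose (0.20, adjusted p = 0.000641, limma), and the others tested did not pass. THUMPD3 (660 shared exon bases) had a log2 change of −0.001. PAX8, a thyroid and kidney transcription factor (685 shared bases), had one of 0.11 (adjusted p = 0.274, limma). PSMA3, a proteasome subunit, had one of 0.08 (adjusted p = 0.173, limma). PSMA3-AS1 shares no exon with PSMA3, but 253 exon bases with ARMH4 on the same strand.

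For 181 antisense RNAs the sense gene was also in the table, and in 156 pairs both passed the minimum. Exon bases were shared in 107 of the 156, with a median of 277 bases or 7.94% of the antisense exons. In 24 the genes overlapped without shared exon, in 24 they did not overlap, and 1 was not placed. The antisense RNA was the lower of the pair per kilobase of exon in 139 of the 155 placed pairs, with medians of 0.765 and 7.66. Of the 177 sense genes tested, 22 changed (12.4%, against 11.4% of all genes; 3 higher and 19 lower), or 39 with the replicate block (7 higher, 32 lower), where 18% of all genes changed.

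In the 156 pairs, 4 antisense RNAs changed (2.56%) and 19 sense genes did (3 higher, 16 lower), and both changed in 0 pairs, which at these shares says little. With the replicate block, 7 antisense RNAs and 35 sense genes changed, both of them in 2 pairs, SOCS2 and GABPB1. In the 19 pairs, 15 antisense RNAs had the sign of their sense gene. Across the 156 pairs the log2 changes had a Pearson correlation of 0.182 and a Spearman correlation of 0.244, with 93 pairs of the same sign. In the 107 pairs that share exon bases these were 0.266 and 0.252, and in the other 49 they were 0.0612 and 0.204. Sharing was counted with the named sense gene only. Some antisense RNAs of the 49 share exon bases with another gene, such as CDKN2B-AS1 with CDKN2A (341 bases) and PSMA3-AS1 with ARMH4 (253 bases). These correlations are a description across genes of the same 6 libraries. The counting of reads in shared exons was not stated in the labels, and the part of such reads was not tested.

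**Figure D4:**
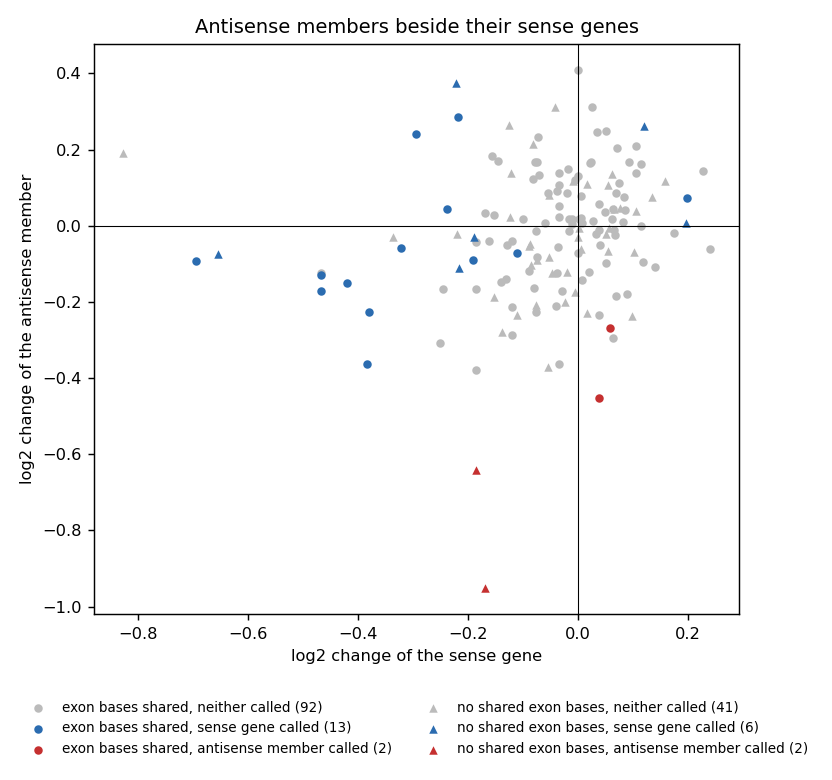
Log2 change of the antisense RNA (vertical axis) against that of its sense gene (horizontal axis), MAT1A minus control, for the 156 pairs in which both were tested, with pairs that share exon bases and pairs that do not drawn apart. Colours mark the 19 pairs in which the sense gene changed and the 4 in which the antisense RNA changed, without the replicate block.

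The sense genes with the smallest p show the range of what their antisense RNAs did. VIM, the intermediate filament of mesenchymal cells, fell from 284 ± 2.52 to 218 ± 3.07 (log2 change −0.38, limma, Benjamini-Hochberg adjusted p = 1.3e-07). VIM-AS1, with 641 bases or 32.2% of its exons in common with VIM, gave −0.23 (adjusted p = 0.372). SOCS2, an inhibitor of cytokine signalling, fell from 50.9 ± 1.43 to 38.8 ± 1.36 (−0.38, adjusted p = 2.6e-05). SOCS2-AS1 read 2.12, 2.22 and 2.51 in control and 1.24, 1.54 and 1.91 in MAT1A libraries, without overlap and with a like change of −0.36 (adjusted p = 0.0783, and 0.0454 with the replicate block). The pair shares 277 exon bases.

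CDKN2B, a cyclin-dependent kinase inhibitor, fell from 19.3 ± 1.12 to 11.95 ± 1.71 (−0.66, adjusted p = 7.6e-05, limma). Its antisense CDKN2B-AS1 (ANRIL), known to recruit Polycomb proteins at this locus, shares no exon with it and gave −0.07 (adjusted p = 0.804, limma). CDKN2B-AS1 does share 341 exon bases with CDKN2A, on the opposite strand, and the part of CDKN2A reads in its value was not tested. RASSF8, a Ras-association protein, fell from 44.2 ± 1.98 to 32.8 ± 2.51 (−0.42, adjusted p = 0.000112) beside RASSF8-AS1 at −0.15 (adjusted p = 0.552). ZNF433, a zinc finger gene, fell from 3.29 ± 0.12 to 1.65 ± 0.14 (−0.69, adjusted p = 0.000511) beside ZNF433-AS1 at −0.09 (adjusted p = 0.695).

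SLC25A25, a mitochondrial ATP-Mg carrier, fell from 70.9 ± 3.20 to 57.6 ± 2.19 (log2 change −0.30, adjusted p = 0.000279, limma). SLC25A25-AS1, with 665 exon bases in common, read 12.2, 9.90 and 10.95 in control and 11.1, 13.2 and 15.7 in MAT1A libraries, overlapping groups with a change of 0.24 (adjusted p = 0.149). GATA3, a urothelial transcription factor, fell from 46.6 ± 0.53 to 38.4 ± 1.196 (−0.28, adjusted p = 0.000611). GATA3-AS1 was under the minimum, at 0.918, 0.809 and 1.01 in control and 1.02, 0.463 and 0.932 in MAT1A libraries. EMC3, a subunit of the membrane protein insertion complex of the endoplasmic reticulum, rose from 257 ± 6.70 to 294.6 ± 8.52 (0.20, adjusted p = 0.000641), while EMC3-AS1 gave 0.07 (adjusted p = 0.444).

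Long noncoding RNAs with other kinds of symbol were read from a list of 42, of which 32 were in the table and 31 tested: 1 rose, 4 fell and 26 did not pass, with a median log2 change of −0.05. That is 16.1%, against 11.4% of all genes tested, and the replicate block added MALAT1 (adjusted p = 0.00408) and PVT1 (adjusted p = 0.0319), both lower (limma) and named after their values were seen. H19, an imprinted RNA of fetal tissue, read 2.12, 2.17 and 1.79 in control and 5.39, 6.32 and 5.13 in MAT1A libraries. That was a rise of 1.13 ± 0.11 on the log2 scale (limma, Benjamini-Hochberg adjusted p = 2.7e-06), beyond the range of the 271 members. LINC-PINT, a p53-induced RNA, read 2.64, 1.62 and 2.32 against 1.19, 0.925 and 1.03 (−0.63, adjusted p = 0.00753, or 0.0553 without control 1). CASC15 fell from 38.6 ± 0.11 to 32.6 ± 0.60 (−0.24, adjusted p = 0.00289). NKILA, an RNA that binds the NF-kB complex, fell from 42.3 ± 2.10 to 37.4 ± 1.44 (−0.17, adjusted p = 0.0361), and MIR100HG, a microRNA host transcript, fell from 16.0 ± 0.35 to 13.5 ± 1.04 (−0.23, adjusted p = 0.0465). NKILA was lost without control 1, control 3, MAT1A 1 or MAT1A 3 (adjusted p up to 0.174), and MIR100HG without any library other than MAT1A 3 (up to 0.162). MIR100HG also did not pass once length and GC trends were removed (adjusted p = 0.0867, limma).

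Genes of nuclear RNA decay, the machinery that trims and removes noncoding transcripts, were 20 tested: 1 rose, 3 fell and 16 did not pass (20% called, against 11.4% of all genes), with a median log2 change of 0.06. RBM7 and ZCCHC8, both of the nuclear exosome targeting complex, fell, while its helicase MTREX gave 154 ± 0.60 and 162 ± 3.77 (log2 change 0.06, adjusted p = 0.214, and 0.0190 with length and GC trends removed; limma; named after its values were seen). RBM7 read 14.0, 14.6 and 16.0 in control and 10.1, 11.3 and 12.8 in MAT1A libraries (−0.36, adjusted p = 0.0106, limma), and ZCCHC8 went from 49.1 ± 1.12 to 43.5 ± 2.78 (−0.17, adjusted p = 0.0320). Of the exosome ring, EXOSC9 fell from 64.7 ± 0.87 to 58.4 ± 1.03 (−0.14, adjusted p = 0.0234) and EXOSC5 rose from 33.9 ± 1.06 to 38.2 ± 1.64 (0.17, adjusted p = 0.0436). RBM7 was lost without control 3 or MAT1A 1 (adjusted p up to 0.0713), and EXOSC9 without any control or MAT1A 1 (up to 0.0928) and with length and GC trends removed (0.107). ZCCHC8 and EXOSC5 were lost without any library other than MAT1A 3, with adjusted p up to 0.144 and 0.17. Of 11 genes of nonsense-mediated and cytoplasmic decay, 0 were called by limma (1 with the replicate block) and 1 had an unadjusted p under 0.05. Among all genes tested these shares were 11.4%, 18% and 26.2%, at which counts among 11 genes say little. The most abundant of them, UPF1 and SMG5, gave 285 ± 3.48 and 293 ± 5.95, and 272 ± 4.05 and 278 ± 2.51.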

How the data were processed

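RNA from 6 libraries of 5637 cells was compared, 3 per group, grouped and numbered from the sample titles. The authors deposited a signal per gene: reads divided by a scaled library size, close to CPM but not raw counts. STAR 2.6.0c, featureCounts, edgeR and hg38 are named in the submitters' processing notes. Their annotation, settings and treatment of reads that fit several genes were not given in the sources used here. All values (100%) were whole multiples of a library's smallest step to within 0.001 reads, which gave the read totals. They were used for depth only, and count tests were not run. Floors of 3 reads cover counting error only.

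Values were tested as log2(value + 1) by limma 3.58.1 (trended variance, R 4.3.3) in the 12866 of 13271 genes that reached 1 in 3 or more libraries. Benjamini-Hochberg adjustment ran over these genes, with calls at an adjusted p under 0.05. The script was tested on simulated data. Genes named were MAT1A, every member called, the 8 members of highest mean value, their sense genes, up to 8 antisense members by the smallest p of a called sense gene, and up to 3 called genes per direction of each list (2 by mean value where none was called). Neighbours are also named. MIR100HG is named outside this rule, as it had the largest p of the called genes that fell in its list. Of the called members, 1 enters the counts but is otherwise not reported here. The members and lists were chosen with earlier results of these data known.

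Positions and exon overlaps are from GENCODE 29, in which 311 of the 315 members were placed (7 by gene ID), and promoters from RefSeq (GRCh38.p14). Libraries with the same replicate number deviated together, with correlations across genes of 0.246, 0.178 and 0.191 after group means were removed. The numbers may therefore pair the libraries, but the main fit has no replicate term. Counts, p-values and figures are unpaired unless the replicate block is named. A blocked value is given where it changes a call. Alternatives were other scalings, filters, pseudocount and threshold, the replicate block, removal of length and GC trends, a muscle marker covariate, and leaving out each library.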

Additional observations from a re-analysis of the deposited data

How the results depend on the processing

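All 15 calls were kept under median-of-ratios size factors, upper-quartile scaling, no filter, a pseudocount of 0.1, the replicate block and removal of length and GC trends. A minimum value of 5, under which the other 6 were not tested, left 9 members called (7 lower, 3 antisense). That was 9 of 80 members tested (11.2%, against 12.8% of all genes), where the main fit had 5.54% against 11.4%. The median log2 change of the members was 0.0133. The muscle covariate left 6 (1 higher, 5 lower; 4 LINC, 2 antisense), with 8 sense genes and 390 of all genes. Adjusted p under 0.01 left 6 members (1 higher, 5 lower; 3 LINC, 3 antisense) and 663 of all genes. The replicate block gave 5 members higher, 39 sense genes and 2310 of all genes, and added SOCS2-AS1, GABPB1-AS1 and TMEM51-AS1. Length and GC removal gave 5 members higher and 1873 of all genes. Together with the replicate block it gave 6 higher, 11 antisense, 40 sense genes and 2493 of all genes.

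Leaving out each library in turn gave 7 to 13 members called, 1 to 4 higher, 5 to 12 lower, 4 to 7 LINC, 3 to 7 antisense, 17 to 32 sense genes, 749 to 1656 of all genes (782 without control 1, 749 without control 3) and a median of -0.0233 to 0.00382. The fewest members, 7, were called without control 2 (2.71%, against 8.54% of all genes tested), and 8 without control 3 (3.1%, against 5.87%).

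Of 698 values for 46 named genes, 617 kept direction and side of the threshold, 50 lost the call, 9 gained it and 22 changed sign. The genes that changed sign were not called in the report. With the muscle covariate LINC00511 was at 0.0423, OIP5 at -0.104, PSMA3-AS1 at -0.0897 and THUMPD3 at 0.0178. With length and GC removed, LINC02582 was at 0.00181 with and without the replicate block, PAX8-AS1 at 0.00207 and THUMPD3 at 0.014. Leaving out a library gave -0.0418 to 0.0187 for LINC00511, -0.024 to 0.0121 for PAX8-AS1, -0.00921 to 0.0904 for PSMA3-AS1, -0.00986 to 0.00757 for THUMPD3, -0.225 to 0.0241 for CDKN2B-AS1, -8.62e-05 to 0.113 for EMC3-AS1 and -0.186 to 0.0447 for ZNF433-AS1. The cause was not tested. EdgeR and DESeq2 on recovered reads were not run. Low values limit the precision: the median standard error of a log2 change was 0.12 for members and 0.057 for all genes.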

Other observations

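LINC00900 fell under the minimum and was not tested in the report. It read 0.746, 0.657 and 1.11 in control and 0.216, 0.103 and 0 in MAT1A libraries. With no filter its log2 change was -0.73 (limma, Benjamini-Hochberg adjusted p = 0.0057). LINC00900 had fewer than 3 reads in MAT1A 2 and MAT1A 3, where 3 reads were worth 0.154 and 0.140. It is named here because its values were seen. Among the 44 members under the minimum, the groups did not overlap in 7, of which 4 were lower and 3 higher in MAT1A cells. Among all genes tested the groups did not overlap in 30.3%, and the share in other genes under the minimum was not taken.

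GABPB1-AS1, chosen after its values were seen, read 17.2, 14.5 and 17.9 in control and 18.6, 17.7 and 25.1 in MAT1A libraries, a log2 change of 0.29 (limma, Benjamini-Hochberg adjusted p = 0.0895, and 0.0057 with the replicate block). GABPB1, a subunit of an ETS transcription factor with which it shares 424 exon bases, changed by -0.22 (adjusted p = 0.00547). TMEM51-AS1, also chosen after its values were seen, read 2.18, 1.47 and 1.496 against 2.48, 2.16 and 3.17 (0.41, adjusted p = 0.0685, and 0.0345 with the replicate block).

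By position, 153 of the 311 placed members share exon bases with some listed gene, 148 of them on the opposite strand and 9 on the same strand. In 48, the nearest coding start in the table lies within 1000 bases, head to head: on the opposite strand, with both genes read away from each other. The median distance to the nearest coding start in the table was 78919 bases for LINC genes and 1235 for antisense genes.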
